A study of Homo sapiens with 18 samples.

Results

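The genotype-by-day interaction asks, for each gene, whether the difference between USB1 mutant and wild type (WT) cells in mature blood cells at day 30 (D30) of hematopoietic differentiation is the difference already present in undifferentiated human embryonic stem cells (hESCs) at day 0 (D0). It was measured as a difference of log2 fold changes, mutant against WT at D30 minus mutant against WT at D0. The libraries were chosen by their labels as all those of D30 and D0, 12 of the 18 in the series. They fall into 4 groups of 3, USB1 mutant D30, WT D30, USB1 mutant D0 and WT D0, all from the hESC line H1, and the 6 libraries of day 16 (D16) entered only as a separate measurement. The mutant cells carry a frameshift deletion in USB1, introduced by CRISPR/Cas9 into H1 cells from which colonies were picked by hand, and the number of colonies behind the libraries is not given in the sources used here. D30 cells came from a differentiation culture towards definitive blood cells and D0 cells from undifferentiated cultures of the same 2 lines. The labels do not say that the replicates were separate cultures, so the p-values measure the spread between these libraries.

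USB1 is an exonuclease that shortens the 3′ end of U6 snRNA, the catalytic RNA of the spliceosome, and biallelic mutation of it causes poikiloderma with neutropenia, a disease of skin and of failing neutrophil production. Red cells, mast cells, neutrophils and macrophages form from stem cells through mesoderm and blood progenitors. For a gene that is silent on 1 day the interaction carries little information.

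USB1 itself (ENSG00000103005, chromosome 16, 57999546 to 58021618, GRCh38) was transcribed in every library. It had 43.6, 65.7 and 68.7 CPM in USB1 mutant libraries at D30, against 64.4, 71.9 and 72.99 CPM in WT libraries, and 83.3, 85.2 and 88.2 CPM in USB1 mutant libraries at D0, against 73.5, 80.2 and 85.1 CPM in WT libraries. The genotypes overlapped on both days and the interaction was not called (−0.35 ± 0.21, padj = 0.39). A frameshift need not change mRNA amount, so this level does not check the genotype labels. USB1 overlaps ZNF319 on the opposite strand, and since the sources do not say that strand was used in quantification, values of such overlapping genes are uncertain. Levels are in CPM, the usual scaling of counts by library size, here after TMM adjustment. Values after ± are the SD of 3 libraries for a level and the standard error for a log2 difference. The adjusted p (padj) came from the quasi-likelihood test of edgeR, corrected over every gene in the fit by the Benjamini-Hochberg method, and a difference was called at padj under 0.1.

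Total counts ran from 4125125 (USB1 mutant D30 replicate 3) to 19368927 (WT D30 replicate 2). The labelled cell types matched their markers. The summed level of 10 pluripotency markers was 51.9 to 85.1 CPM in USB1 mutant and 46.9 to 52.3 CPM in WT libraries at D30, against 6440 to 7220 CPM in USB1 mutant and 6160 to 7070 CPM in WT libraries at D0, while 5 leukocyte markers summed to 2120 to 3130 CPM in USB1 mutant and 3180 to 3730 CPM in WT libraries at D30. Summed markers of several blood lineages at D30 differed between the 2 genotypes. Erythroid markers summed to 2230 to 5130 CPM in USB1 mutant and 1100 to 1640 CPM in WT libraries, monocyte and macrophage markers to 1460 to 2380 CPM in USB1 mutant and 3190 to 3930 CPM in WT libraries, and neutrophil markers to 40.9 to 172 CPM in USB1 mutant and 185 to 658 CPM in WT libraries, with no overlap of the genotypes in any of the 3 lists. Megakaryocyte markers, mostly ITGA2B, summed to 85.7 to 216 CPM in USB1 mutant and 30.8 to 82.2 CPM in WT libraries, also without overlap. The summed mast cell and eosinophil markers, mostly EPX, PRG2 and CLC, overlapped, at 3200 to 7850 CPM in USB1 mutant and 1490 to 6900 CPM in WT libraries. Among them KIT had 238 to 628 CPM in USB1 mutant and 10.9 to 42.4 CPM in WT libraries, without overlap. CPA3 had 48.9 to 277 CPM in USB1 mutant and 24.7 to 43.3 CPM in WT libraries, also without overlap. HDC, EPX, PRG2 and CLC each overlapped. Mesenchymal stroma markers were highest in USB1 mutant D30 replicate 3, at 122 CPM, against 35.3 CPM for the median of the mutant libraries. In bulk RNA, more cells of a type and more RNA per cell cannot be told apart, and this holds for each D30 value below.

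The genotype effect differed between D30 and D0 for 1647 of 16277 genes tested (10.1%), of which 1000 had a positive interaction (6.14%) and 647 a negative one (3.97%), and 984 of the 1647 differed by over 2-fold. Most of these genes were called between the genotypes in blood and not in stem cells. Of the 1647, 1509 were called between the genotypes at D30 only, 35 at D0 only, 14 in opposite directions on the 2 days, 7 in the same direction with unequal size, and 82 on neither day. The genotype effect was called for 4631 genes at D30 (28.5%, with 2426 higher, 14.9%, and 2205 lower, 13.5%) and for 141 at D0 (0.866%, with 43 higher, 0.264%, and 98 lower, 0.602%). That fit shares 1 estimate of the spread between both days. Separate fits of 6 libraries a day, chosen after seeing the data, called 2933 genes at D30 (1543 higher and 1390 lower) and 432 at D0 (157 higher and 275 lower), so a gene not called at D0 in the shared fit is not shown to be equal there. Same-numbered D0 libraries of the genotypes deviated together, and a fit of the 6 D0 libraries alone, blocked on that number (an alternative chosen after seeing the data), gave 1718 calls (889 higher and 829 lower). In the 12-library fit a block on the D0 numbers gave 1345 interaction calls, 1281 of them among the 1647, and 73 D0 calls. Of the 113 named genes with an interaction call 15 lost it under that block, among them RRM2, ERAP2, CXCR4, SLC25A37, CEBPB, GATA2, TAGLN, TNRC6B, AGO2, APOE and HMOX1.

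The balance of positive and negative interactions depended on the scaling. It was 840 to 830 when globins and the 20 most abundant genes were left out of the scaling factors, 861 to 852 among genes that passed the count filter on both days and 894 to 762 with RLE scaling, while the median interaction over all genes tested was 0.02 in the main fit and −0.05 with the first of these scalings. Among 9890 genes with a mean of at least 5 CPM on each day, 1106 (11.2%) were called, 649 positive (6.56%) and 457 negative (4.62%). The median absolute log2 genotype effect of these 9890 genes was 0.27 at D30 and 0.12 at D0, and over genes, which are not independent replicates, Pearson's r between the D30 and D0 effects was 0.115. The 95% interval of the interaction had a median half-width of 0.501 on the log2 scale, and for 6906 of the 9890 genes (69.8%) it lay wholly within 1 log2 unit of 0. The last gene called, CD302, had an interaction of −1.40 (padj = 0.09999), and the first not called, SLC30A10, 3.31 (padj = 0.1001).

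**Figure D1:**
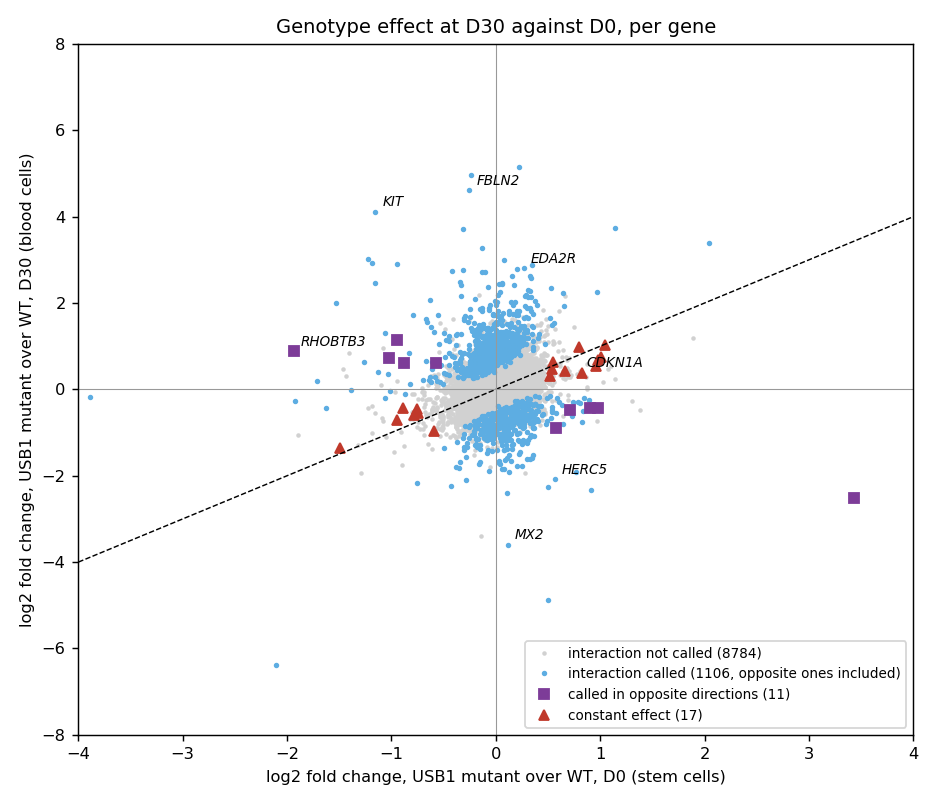
Log2 fold change of USB1 mutant over WT at D30 (vertical) against D0 (horizontal), 1 point a gene, for 9886 of the 9890 genes with at least 5 CPM on both days (4 lie outside the axes). The dashed line marks equal effects. The 1106 genes called for interaction spread along the vertical axis, 11 genes called in opposite directions sit in the upper left and lower right quadrants, and 17 genes with a constant effect lie near the dashed line.

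The lists of genes with a shared role differed in where the genotype effect appeared. The plot of list medians gives 15 of the 42 lists, chosen with the results known, for members with at least 5 CPM on both days, beside medians of −0.01 at D30 and −0.00 at D0 over the 9890 genes. Among these lists interferon-stimulated genes had the lowest D30 median (−0.88 over 12 genes, against 0.14 at D0), followed by mitosis genes (−0.66 over 34, against −0.02). Targets of p53 had the highest of the 15 (0.69 over 27, against 0.25). Outside the plot, erythroid genes had a D30 median of 1.16 over 10 genes and monocyte and macrophage genes −0.74 over 8.

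**Figure D2:**
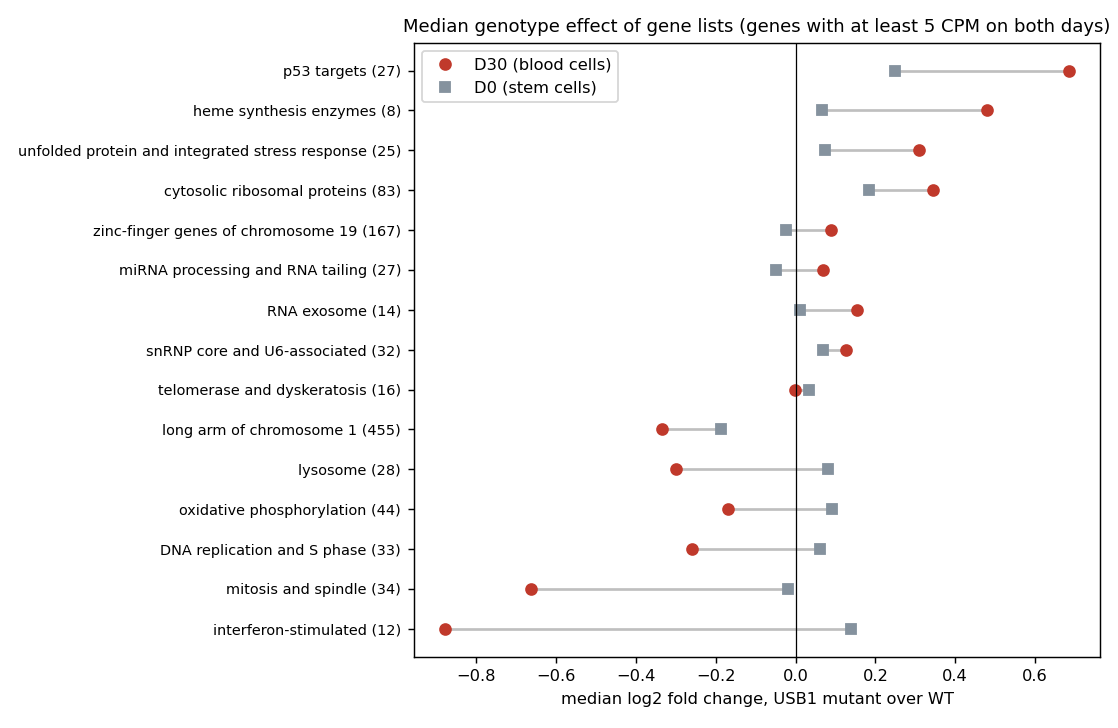
Median log2 fold change of USB1 mutant over WT for 15 gene lists at D30 (circles) and D0 (squares), joined by a line, with the number of members of at least 5 CPM on both days in parentheses. Lists are ordered by their median interaction. D30 medians run from −0.88 for interferon-stimulated genes to 0.69 for p53 targets, and D0 medians from −0.19 for the long arm of chromosome 1 to 0.25 for p53 targets.

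Most interferon-stimulated genes were lower in USB1 mutant than in WT blood cells, with a negative interaction in 19 of them. These genes are switched on when interferon receptors activate a complex that holds STAT2 and IRF9, which binds the interferon-stimulated response element (ISRE) in promoters, and their products block viral replication. Of 34 tested members of the list (37 members), 0 had a positive and 19 a negative interaction, against 3.97% negative over all genes, and the median interaction of the 12 members with at least 5 CPM on both days was −1.06, against −0.01 over all such genes. At D30 1 member was higher and 28 were lower in mutant libraries, and at D0 0 were higher and 1, EPSTI1, was lower (4 higher and 2 lower at an unadjusted p under 0.05). No positive interaction was called by edgeR, DESeq2 or limma-voom, nor at an unadjusted p under 0.05 (0 members), but 2 were called without USB1 mutant D30 replicate 1. Several members, among them OAS2, IFI44, IFI44L and OASL, which were named after their values were seen, had close to no reads at D0, and no interaction was called for them.

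MX1, a GTPase that traps viral ribonucleoproteins, had 7.07, 10.5 and 8.38 CPM in USB1 mutant libraries at D30, against 220.4, 214 and 141 CPM in WT libraries. It had 5.02, 5.25 and 5.02 CPM in USB1 mutant libraries at D0, against 3.46, 4.07 and 4.02 CPM in WT libraries. The D30 groups lay far apart with no overlap, and the mutant D0 values were all slightly above WT (interaction −4.86 ± 0.29, padj = 6.23e-06, the smallest adjusted p of the list).

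ISG15, a ubiquitin-like modifier, had 35.98, 71.6 and 60.04 CPM in USB1 mutant libraries at D30, against 157, 222 and 191 CPM in WT libraries, and 16.2, 17.8 and 21.9 CPM in USB1 mutant libraries at D0, against 15.5, 15.7 and 17.6 CPM in WT libraries. The genotypes were separate at D30 and close together at D0 (−1.98 ± 0.31, padj = 0.00406). HERC5, the main ligase for ISG15, had 8.23, 14.05 and 9.77 CPM in USB1 mutant libraries at D30, against 41.6, 48.6 and 47.05 CPM in WT libraries, and 37.3, 35.3 and 39.9 CPM in USB1 mutant libraries at D0, against 30.2, 24.1 and 21.6 CPM in WT libraries. Its D30 values were lower in all mutant libraries while its D0 values were higher in all of them, though the D0 difference was not called (interaction −2.64 ± 0.26, padj = 2.97e-04). STAT2, a subunit of the activating complex, had 114, 119 and 94.4 CPM in USB1 mutant libraries at D30, against 217, 201 and 189 CPM in WT libraries, and 35.8, 34.03 and 37.9 CPM in USB1 mutant libraries at D0, against 30.9, 29.2 and 29.8 CPM in WT libraries, again with separate groups at D30 (interaction −1.15 ± 0.16, padj = 0.00211). MX2, a relative of MX1, fell to 4.61 ± 2.53 CPM in USB1 mutant libraries at D30, against 57.7 ± 4.38 CPM in WT libraries, with 5.62 ± 1.12 CPM in USB1 mutant and 5.19 ± 0.611 CPM in WT libraries at D0 (interaction −3.71 ± 0.42, padj = 7.14e-04). IFI6, a mitochondrial protein, had 55.7 ± 22.1 CPM in USB1 mutant and 514 ± 37.5 CPM in WT libraries at D30, and 1.18 ± 0.268 CPM in USB1 mutant and 1.34 ± 0.0914 CPM in WT libraries at D0 (interaction −3.04 ± 0.50, padj = 0.00493). OAS3, which makes oligoadenylates that activate RNase L, had 24.7 ± 7.48 CPM in USB1 mutant and 216 ± 59.99 CPM in WT libraries at D30, and 2.28 ± 0.452 CPM in USB1 mutant and 3.89 ± 0.559 CPM in WT libraries at D0 (interaction −2.32 ± 0.39, padj = 0.00565). In these 3 genes the D30 groups did not overlap.

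The list's negative count was 13 with transcript lengths as offsets and 15 to 20 with 1 library of D30 or D0 left out. The monocyte and macrophage markers given above were lower in mutant libraries at D30 as well, and their part in the result was not tested. In the D16 libraries, which share no sample with this comparison, 6 of 32 members were higher and 3 lower in mutant cells, where 13.1% of all genes were higher and 15.3% lower.

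Promoters are shown for 4 of these genes because the ISRE is the sequence through which they are known to respond. The letters searched were GAAA, any 2 bases and GAAA again, on either strand, in the window from 250 bases before to 50 after the start site of each gene (RefSeq, GRCh38.p14). They occurred in 18 of 26 list members with a window (69.2%), in 9 of the 14 called for interaction (64.3%) and in 341 of 11999 tested genes (2.84%). Capitals mark each match, 5′ to 3′ on the gene's strand.
MX1 (chr21:41420308-41420607, plus strand): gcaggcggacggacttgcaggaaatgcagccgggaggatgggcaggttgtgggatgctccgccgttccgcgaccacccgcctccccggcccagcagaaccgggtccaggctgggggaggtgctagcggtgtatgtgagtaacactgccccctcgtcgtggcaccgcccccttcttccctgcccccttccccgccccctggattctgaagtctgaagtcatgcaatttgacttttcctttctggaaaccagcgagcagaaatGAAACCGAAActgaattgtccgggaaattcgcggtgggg
ISG15 (chr1:1013247-1013546, plus strand): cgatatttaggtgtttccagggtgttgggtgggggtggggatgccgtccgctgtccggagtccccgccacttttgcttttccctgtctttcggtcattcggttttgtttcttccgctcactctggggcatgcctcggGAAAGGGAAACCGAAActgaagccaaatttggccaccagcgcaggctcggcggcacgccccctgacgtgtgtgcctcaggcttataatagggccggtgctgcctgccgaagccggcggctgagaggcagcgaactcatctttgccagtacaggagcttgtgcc
IFI6 (chr1:27672143-27672442, minus strand): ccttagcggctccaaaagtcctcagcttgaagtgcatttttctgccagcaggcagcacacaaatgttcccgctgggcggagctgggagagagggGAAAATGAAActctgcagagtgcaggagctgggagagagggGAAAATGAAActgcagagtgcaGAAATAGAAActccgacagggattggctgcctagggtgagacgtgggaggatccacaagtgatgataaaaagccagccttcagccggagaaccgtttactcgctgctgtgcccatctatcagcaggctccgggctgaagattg
OAS3 (chr12:112938224-112938523, plus strand): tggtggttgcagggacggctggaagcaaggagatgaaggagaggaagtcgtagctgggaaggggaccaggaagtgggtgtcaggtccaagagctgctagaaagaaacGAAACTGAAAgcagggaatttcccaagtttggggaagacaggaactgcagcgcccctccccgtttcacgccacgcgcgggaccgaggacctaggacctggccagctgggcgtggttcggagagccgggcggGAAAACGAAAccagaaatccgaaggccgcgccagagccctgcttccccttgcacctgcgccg
ISG15 holds 2 overlapping matches, IFI6 holds 3, OAS3 holds 2 and MX1 holds 1. The STAT2 window holds 0 matches.

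**Figure D3:**
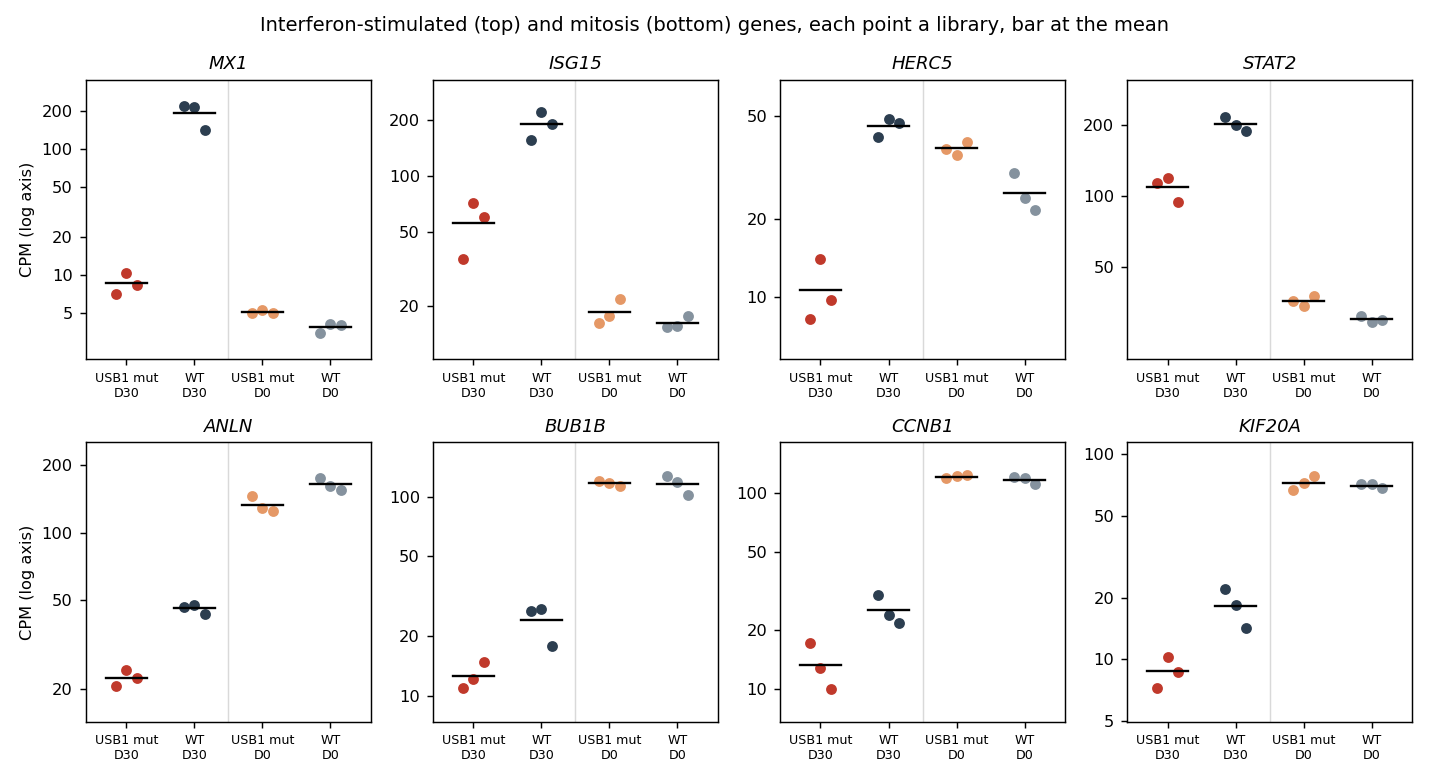
CPM (log axis) of 4 interferon-stimulated genes (top) and 4 mitosis genes (bottom) in each library, with USB1 mutant and WT at D30 and then at D0, and bars at the group means. In all 8 genes the mutant D30 points lie below the WT D30 points, while the D0 gaps are smaller. MX1 shows the widest gap, 7.07, 10.5 and 8.38 CPM in mutant against 220.4, 214 and 141 CPM in WT libraries at D30.

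Genes of mitosis and the spindle were lower in USB1 mutant than in WT blood cells as well. All 36 list members were tested, and 0 had a positive and 17 a negative interaction, against 3.97% negative over all genes. The median interaction was −0.67 over the 34 members with at least 5 CPM on both days. At D30 0 were higher and 29 lower in mutant cells, against 13.5% lower over all genes. At D0 0 were called in either direction (0 higher and 2 lower at an unadjusted p under 0.05). ANLN, an actin-binding protein of the cleavage furrow, had 20.7, 24.3 and 22.3 CPM in USB1 mutant libraries at D30, against 46.8, 47.4 and 43.5 CPM in WT libraries. At D0 it had 146, 129 and 125 CPM in USB1 mutant libraries, against 175, 162 and 156 CPM in WT libraries. The mutant values were lower on both days, without overlap, but the D30 gap was the larger (interaction −0.73 ± 0.16, padj = 0.0187).

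KIF20A, a kinesin of the central spindle, had 8.74 ± 1.51 CPM in USB1 mutant and 18.2 ± 3.99 CPM in WT libraries at D30, and 72.6 ± 5.58 CPM in USB1 mutant and 70.4 ± 1.602 CPM in WT libraries at D0 (interaction −1.09 ± 0.23, padj = 0.0173). BUB1B, a spindle checkpoint kinase, had 10.9, 12.1 and 14.8 CPM in USB1 mutant libraries at D30, against 26.6, 27.3 and 17.7 CPM in WT libraries, with overlapping genotypes at D0 (interaction −0.96 ± 0.24, padj = 0.0324). CCNB1, the cyclin that drives entry into mitosis, had 13.3 ± 3.61 CPM in USB1 mutant and 25.3 ± 4.41 CPM in WT libraries at D30, and 120.3 ± 2.14 CPM in USB1 mutant and 116 ± 5.52 CPM in WT libraries at D0 (interaction −0.93 ± 0.23, padj = 0.0339). The number of negative calls was less firm than for the interferon genes. It was 4 without WT D30 replicate 2 or without USB1 mutant D0 replicate 2, 6 without USB1 mutant D0 replicate 3 or WT D0 replicate 2, 8 or 9 without WT D30 replicate 1, WT D0 replicate 1 or WT D0 replicate 3, 11 without USB1 mutant D30 replicate 3 or USB1 mutant D0 replicate 1, 9 with limma-voom and 5 with transcript lengths, with 0 positive calls in each. At D16 14 of 36 members were higher and 0 lower in mutant cells, where 13.1% of all genes were higher and 15.3% lower. The negative count was 10 with the replicate number of D0 as a block.

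Replication genes held fewer calls. Of 36 members, 0 had a positive and 3 a negative interaction (0 and 11 at an unadjusted p under 0.05), against 3.97% negative over all genes. Among them were RFC5, a subunit of the clamp loader (−0.68 ± 0.19, padj = 0.0574), and RRM2, a subunit of ribonucleotide reductase (−0.69 ± 0.22, padj = 0.0847). Leaving out 1 library gave 0 to 9 negative calls, with 0 without WT D30 replicate 2, USB1 mutant D0 replicate 1, USB1 mutant D0 replicate 2, WT D0 replicate 2 or WT D0 replicate 3, 1 without WT D30 replicate 1 or USB1 mutant D0 replicate 3, 5 without WT D30 replicate 3 and 9 without USB1 mutant D30 replicate 1. Of the 7 CDK inhibitors, CDKN1B, which encodes p27, rose to 91.5 ± 15.5 CPM in USB1 mutant libraries at D30, against 45.8 ± 3.86 CPM in WT libraries, with 25 ± 2.46 CPM in USB1 mutant and 26.1 ± 1.65 CPM in WT libraries at D0 (interaction 1.06 ± 0.20, padj = 0.00844). CDKN2B, which encodes p15, rose in mutant cells at D30 (0.85 ± 0.20, padj = 0.0112) and had 9.44 ± 1.12 CPM in USB1 mutant and 16.8 ± 4.23 CPM in WT libraries at D0 (interaction 1.68 ± 0.30, padj = 0.00666).

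A cell cycle homology region (CHR), TTTGAA, is known to time mitotic transcription together with CCAAT boxes, and 2 windows are shown for that reason. TTTGAA on either strand occurred in 21 of 30 list members with a window (70%), in 10 of the 17 called for interaction (58.8%) and in 1240 of 11999 tested genes (10.3%). CCAAT occurred in 23 of 30 members (76.7%) and in 36.3% of tested genes. Capitals mark TTTGAA or its reverse complement.
BUB1B (chr15:40160819-40161118, plus strand): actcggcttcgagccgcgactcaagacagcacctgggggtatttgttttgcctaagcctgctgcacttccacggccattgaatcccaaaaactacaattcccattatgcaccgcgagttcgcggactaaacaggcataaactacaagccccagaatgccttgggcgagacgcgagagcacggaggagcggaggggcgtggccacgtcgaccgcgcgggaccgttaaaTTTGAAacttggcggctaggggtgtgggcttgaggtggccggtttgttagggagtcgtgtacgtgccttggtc
ANLN (chr7:36389612-36389911, plus strand): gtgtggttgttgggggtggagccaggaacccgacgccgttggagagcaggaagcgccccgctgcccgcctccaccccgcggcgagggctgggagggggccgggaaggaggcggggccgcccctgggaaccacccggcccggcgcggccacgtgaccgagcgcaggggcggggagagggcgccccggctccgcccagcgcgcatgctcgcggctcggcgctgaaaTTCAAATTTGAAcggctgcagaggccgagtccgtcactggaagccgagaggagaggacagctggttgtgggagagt
ANLN holds 2 adjoining matches, 1 on each strand, and BUB1B holds 1. The KIF20A and CCNB1 windows hold 0.

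Targets of p53 were mostly higher in USB1 mutant than in WT blood cells, and CDKN1A was higher by a similar amount in stem cells. The factor p53 is stabilised by DNA damage and by disturbed ribosome assembly, and its targets arrest the cell cycle (CDKN1A), remove p53 again (MDM2) or promote apoptosis (BBC3, BAX). All 28 list members were tested. At D30 20 were higher and 1 lower in mutant cells, against 14.9% and 13.5% of all genes. At D0 2 were higher and 0 lower (7 higher and 0 lower at an unadjusted p under 0.05). The interaction was positive for 11, against 6.14% over all genes, and negative for 1, TP53I3, with a median of 0.53 over 27 members with at least 5 CPM on both days, and 1 member, CDKN1A, met the definition of a constant effect given below.

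CDKN1A, the p21 inhibitor of cyclin-dependent kinases, had 538, 549 and 585 CPM in USB1 mutant libraries at D30, against 228, 274 and 339 CPM in WT libraries. At D0 it had 45.6, 38.6 and 44.5 CPM in USB1 mutant libraries, against 28.5, 22.2 and 23.3 CPM in WT libraries. The mutant libraries were higher on both days without overlap, by 0.99 ± 0.15 on the log2 scale at D30 (padj = 7.24e-04) and 0.80 ± 0.16 at D0 (padj = 0.0419), and the 95% interval of their difference ran from −0.28 to 0.65.

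AEN, a nuclease induced in apoptosis, had 329, 228 and 293 CPM in USB1 mutant libraries at D30, against 46.4, 54.3 and 70.8 CPM in WT libraries. It had 287 ± 6.94 CPM in USB1 mutant and 231 ± 13.4 CPM in WT libraries at D0. The mean was lower at D30 than at D0 in WT cells and about the same on both days in mutant cells (interaction 2.00 ± 0.23, padj = 7.44e-04). EDA2R, a death receptor relative that binds ectodysplasin A2, had 20.05, 19.8 and 24.02 CPM in USB1 mutant libraries at D30, against 2.09, 3.14 and 3.74 CPM in WT libraries, and 14.1 ± 0.666 CPM in USB1 mutant and 11.7 ± 1.54 CPM in WT libraries at D0 (interaction 2.54 ± 0.28, padj = 5.76e-04). MDM2, the ligase that degrades p53, had 384, 371 and 333 CPM in USB1 mutant libraries at D30, against 163, 159 and 186 CPM in WT libraries. It had 271, 236 and 227 CPM in USB1 mutant libraries at D0, against 228, 215 and 201 CPM in WT libraries, close together (interaction 0.91 ± 0.17, padj = 0.00767). BBC3, which encodes PUMA, had 185 ± 56.97 CPM in USB1 mutant and 39.3 ± 12.6 CPM in WT libraries at D30, and 31.1 ± 1.14 CPM in USB1 mutant and 19.9 ± 3.03 CPM in WT libraries at D0 (interaction 1.58 ± 0.35, padj = 0.0201). BAX, the pore-forming effector of apoptosis, had 148 ± 30.5 CPM in USB1 mutant and 60.4 ± 6.93 CPM in WT libraries at D30, and 63.3 ± 4.19 CPM in USB1 mutant and 47.6 ± 3.75 CPM in WT libraries at D0 (interaction 0.88 ± 0.22, padj = 0.0324). GDF15, a secreted stress cytokine that was named after its values were seen, was called higher in mutant cells on both days with a larger effect at D30 (interaction 1.295 ± 0.30, padj = 0.0256). Of the other 2 apoptosis regulators named by rule, BMF was higher at D30 (interaction 0.83 ± 0.20, padj = 0.0325) and BAK1 lower (interaction −0.78 ± 0.23, padj = 0.0689). The positive count of the list was 9 with transcript lengths and 8 to 13 with 1 library left out, and at D16 5 of 27 members were higher and 4 lower, close to the 13.1% and 15.3% of all genes.

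**Figure D4:**
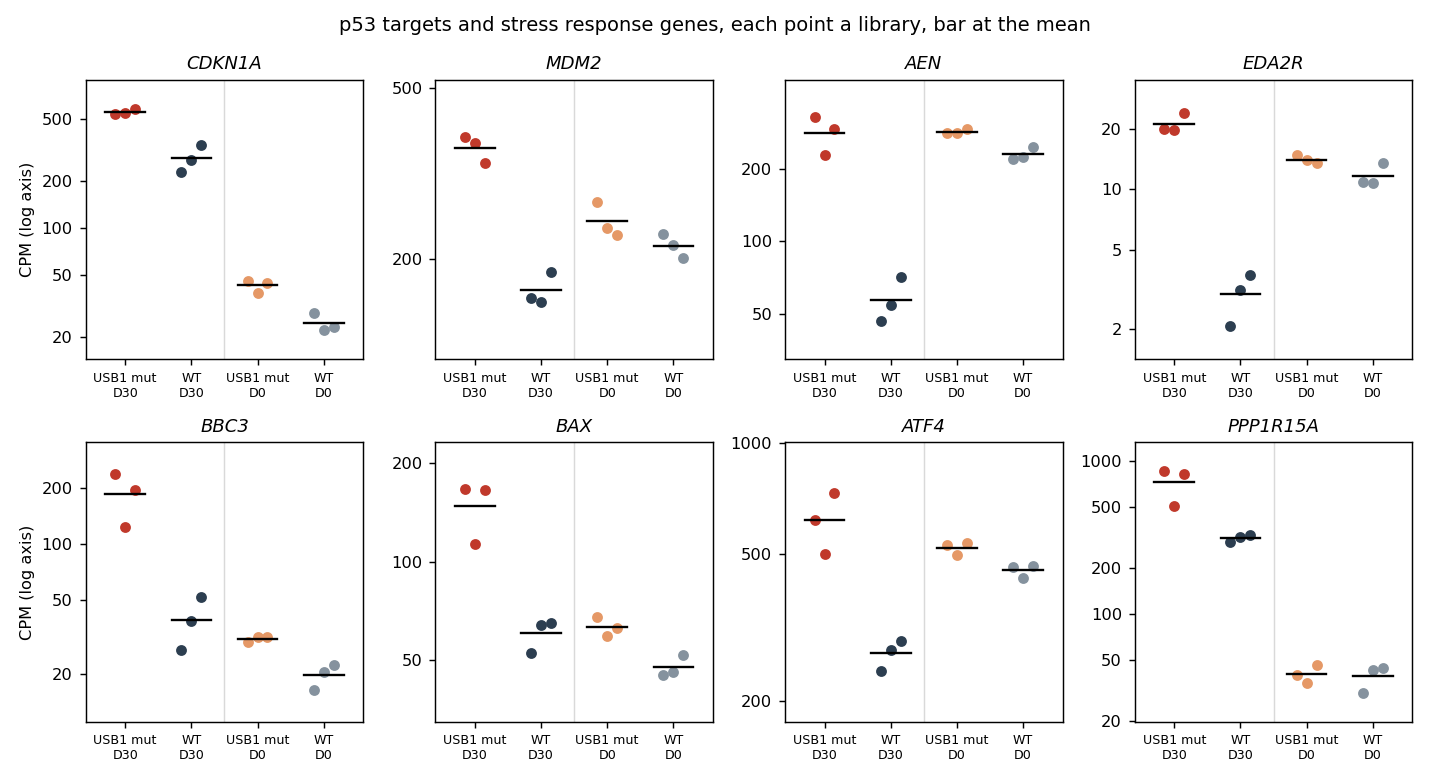
CPM (log axis) of 6 p53 targets and 2 genes of the integrated stress response in each library, with USB1 mutant and WT at D30 and then at D0, and bars at the group means. CDKN1A shows a similar gap on both days, 557 ± 24.5 against 281 ± 55.9 CPM at D30 and 42.9 ± 3.76 against 24.6 ± 3.36 CPM at D0 (mutant against WT, SD, n = 3), whereas the other 7 genes separate mainly at D30.

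The unfolded protein and integrated stress response list, whose factor ATF4 is translated when eIF2 is phosphorylated, had 10 positive and 1 negative (PDIA4) interactions among 29 tested members. The shares over all genes were 6.14% positive and 3.97% negative. At D30 12 members were higher and 5 lower in mutant cells, against 14.9% and 13.5% of all genes. At D0 0 were called in either direction (4 higher and 0 lower at an unadjusted p under 0.05). ATF4 had 619, 500.3 and 730.3 CPM in USB1 mutant libraries at D30, against 241, 275 and 290.3 CPM in WT libraries. It had 528, 496 and 534 CPM in USB1 mutant libraries at D0, against 461, 429 and 465 CPM in WT libraries. Mutant libraries were higher on both days without overlap, by 1.20 at D30 and 0.20 at D0 on the log2 scale, and the second was not called (interaction 0.99 ± 0.20, padj = 0.0118). PPP1R15A, which dephosphorylates eIF2, had 862, 510.4 and 826 CPM in USB1 mutant libraries at D30, against 295, 319 and 332 CPM in WT libraries, with overlap at D0 (interaction 1.16 ± 0.28, padj = 0.0305). CEBPG, a partner of ATF4, had 103 ± 8.79 CPM in USB1 mutant and 52.96 ± 6.62 CPM in WT libraries at D30, and 74.2 ± 15.4 CPM in USB1 mutant and 78.05 ± 8.52 CPM in WT libraries at D0 (interaction 1.04 ± 0.22, padj = 0.0168). SESN2, a stress-induced inhibitor of mTORC1 that is in the p53 list too, had 253 ± 48.3 CPM in USB1 mutant and 90.9 ± 16.1 CPM in WT libraries at D30, and 79.4 ± 5.39 CPM in USB1 mutant and 62.6 ± 12.8 CPM in WT libraries at D0 (interaction 1.13 ± 0.26, padj = 0.0228). Both were separate at D30 and overlapped at D0. The positive count was 4 without WT D30 replicate 2, WT D0 replicate 2, USB1 mutant D0 replicate 2 or USB1 mutant D0 replicate 3, and 6 without USB1 mutant D30 replicate 1 or 3, WT D30 replicate 3 or WT D0 replicate 3. At D16 0 of 29 members were higher and 18 lower in mutant cells, against 13.1% and 15.3% of all genes.

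Of 23 genes that detoxify peroxide and superoxide, 3 had a positive and 1 a negative interaction, against 6.14% and 3.97% of all genes. GCLM, a subunit of the enzyme that starts glutathione synthesis, had 76.1 ± 14.99 CPM in USB1 mutant and 39.6 ± 3.13 CPM in WT libraries at D30, and 51.8 ± 4.66 CPM in USB1 mutant and 52.95 ± 3.99 CPM in WT libraries at D0 (interaction 0.96 ± 0.20, padj = 0.0157). HMOX1, which breaks down heme, had 819 ± 229 CPM in USB1 mutant and 282 ± 66.2 CPM in WT libraries at D30, and 54.8 ± 5.46 CPM in USB1 mutant and 37.2 ± 1.36 CPM in WT libraries at D0 (interaction 0.98 ± 0.29, padj = 0.0649). SOD1, the cytosolic superoxide dismutase, was the third (0.70 ± 0.20, padj = 0.0606). The positive count was 1 without USB1 mutant D30 replicate 3, WT D30 replicate 2, USB1 mutant D0 replicate 2, USB1 mutant D0 replicate 3 or WT D0 replicate 1.

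ENTREP3 and FLOT1 were among the 8 genes with the lowest interactions of those with at least 5 CPM on both days. ENTREP3, a membrane protein gene on the long arm of chromosome 1, had 0 counts in all 3 USB1 mutant D30 libraries and 400 in the WT D30 libraries together (9.51, 12.3 and 10.9 CPM). With the mutant group set to 3 counts in all (0.122 CPM), it was at least 89.2-fold lower, a bound that covers the counting error of the mutant group only. At D0 it had 7.39, 9.14 and 9.03 CPM in USB1 mutant libraries, against 9.61, 13.2 and 10.1 CPM in WT libraries, lower without overlap but not called (−0.37 ± 0.21, padj = 0.757). FLOT1, a lipid raft protein encoded in the HLA region, where reads of alternative haplotypes can be split, had 10.2, 8.12 and 11.2 CPM in USB1 mutant libraries at D30, against 73.5, 60.2 and 33.6 CPM in WT libraries, and 5.57, 4.25 and 30.7 CPM in USB1 mutant libraries at D0, against 2.46, 0.267 and 1.13 CPM in WT libraries (interaction −5.95 ± 1.04, padj = 0.00544). Its D0 mean rested largely on mutant replicate 3.

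Other genes among the 8 lowest encode secreted and membrane proteins. MMP9, the gelatinase of neutrophil granules and macrophages, had 282, 209 and 193 CPM in USB1 mutant libraries at D30, against 1049.6, 1033 and 1199 CPM in WT libraries, with overlapping levels at D0 (interaction −2.76 ± 0.38, padj = 0.00191). COL8A2, a collagen chain, had 13.2 ± 5.25 CPM in USB1 mutant and 67.99 ± 27.9 CPM in WT libraries at D30, and 7.66 ± 1.79 CPM in USB1 mutant and 4.09 ± 0.698 CPM in WT libraries at D0 (interaction −3.24 ± 0.48, padj = 0.00303). MCOLN3, a cation channel of endosomes, had 5.55 ± 1.99 CPM in USB1 mutant and 21.7 ± 3.23 CPM in WT libraries at D30, and 6.73 ± 1.41 CPM in USB1 mutant and 3.90 ± 1.06 CPM in WT libraries at D0 (interaction −2.68 ± 0.40, padj = 0.00297). In these 3 genes mutant cells were lower at D30 and had the higher mean at D0, a D0 difference that was not called for any of them.

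Among called genes with at least 5 CPM on both days the highest interaction belonged to KIT, the receptor for stem cell factor that mast cells and blood progenitors carry. KIT (ENSG00000157404, chromosome 4, 54657267 to 54740783, GRCh38) had 238, 513 and 628 CPM in USB1 mutant libraries at D30, against 42.4, 10.9 and 27.8 CPM in WT libraries. It had 8.58, 12.1 and 11.8 CPM in USB1 mutant libraries at D0, against 28.6, 22.3 and 21.6 CPM in WT libraries. Mutant libraries were above WT at D30 and below WT at D0 without overlap (interaction 5.27 ± 0.59, padj = 8.03e-04), and the D0 difference was not called (−1.16 ± 0.43, padj = 0.439). KIT was also higher in mutant cells at D16 (1.62 ± 0.25, padj = 0.00183). The mast cell marker CPA3 was higher in mutant blood as well, and the part of mast cell content in the KIT result was not tested.

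FBLN2 and ADAMTS7, an extracellular matrix protein and a metalloprotease, had at least their D0 mean in mutant blood and close to none in WT blood. FBLN2 had 53.3, 58.2 and 92.4 CPM in USB1 mutant libraries at D30, against 4.43, 1.51 and 2.97 CPM in WT libraries, and 27.6 ± 3.48 CPM in USB1 mutant and 33.01 ± 3.82 CPM in WT libraries at D0 (interaction 4.87 ± 0.41, padj = 7.17e-05). ADAMTS7 had 32.9, 30.5 and 44.96 CPM in USB1 mutant libraries at D30, against 1.69, 0.811 and 0.6596 CPM in WT libraries, and 28.5 ± 6.17 CPM in USB1 mutant and 24.5 ± 4.44 CPM in WT libraries at D0 (interaction 4.94 ± 0.42, padj = 7.17e-05). HS3ST4, a heparan sulfate sulfotransferase, was higher in mutant blood (interaction 5.20 ± 0.71, padj = 0.00163). FST, the activin antagonist follistatin, had 18.9 ± 2.39 CPM in USB1 mutant and 2.72 ± 1.75 CPM in WT libraries at D30, and 28.1 ± 7.205 CPM in USB1 mutant and 63.9 ± 4.95 CPM in WT libraries at D0 (interaction 4.12 ± 0.46, padj = 6.64e-04). IGFBP5, which binds insulin-like growth factors, had 30.4, 17.6 and 61.4 CPM in USB1 mutant libraries at D30, against 4.82, 1.24 and 8.02 CPM in WT libraries, and 128, 78.2 and 92.5 CPM in USB1 mutant libraries at D0, against 179, 232 and 287 CPM in WT libraries (interaction 4.24 ± 0.70, padj = 0.00493). Mutant values were above WT at D30 and below WT at D0 without overlap. It was lower in mutant cells at D16 (−1.88 ± 0.27, padj = 0.00142). PERP, a desmosomal p53 target, had an interaction of 4.02 ± 0.82, padj = 0.00899. LRRN4, a membrane protein, completed the 8 highest (3.86 ± 0.80, padj = 0.0147). The calls of PERP and LRRN4 were lost in 2 of 26 alternatives, those without all libraries of replicate number 2 or 3. Stroma markers were highest in USB1 mutant D30 replicate 3, and their part in the high values of matrix genes was not tested.

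In 14 genes (0.086% of those tested) the genotype effect was called on both days and in opposite directions. RHOBTB3, an ATPase of the Golgi, had 84.2, 107 and 99.4 CPM in USB1 mutant libraries at D30, against 50.8, 53.8 and 53.2 CPM in WT libraries. It had 4.65, 12.9 and 10.2 CPM in USB1 mutant libraries at D0, against 27.8, 37.1 and 41.8 CPM in WT libraries. Mutant cells thus had the higher level in blood and the lower one in stem cells, without overlap on either day (interaction 2.82 ± 0.36, padj = 0.0015). MCC, a negative regulator of Wnt signalling, had 12.8, 19.1 and 20.4 CPM in USB1 mutant libraries at D30, against 8.21, 8.92 and 5.83 CPM in WT libraries, and 37.2, 54.4 and 46.7 CPM in USB1 mutant libraries at D0, against 98.7, 80.6 and 87.4 CPM in WT libraries (interaction 2.10 ± 0.29, padj = 0.00203). MSI2, the RNA-binding protein Musashi-2 that supports hematopoietic stem cell renewal, had 82.7, 85.5 and 99.7 CPM in USB1 mutant libraries at D30, against 60.2, 51.4 and 62.2 CPM in WT libraries, and 24.4, 28.96 and 25.8 CPM in USB1 mutant libraries at D0, against 43.6, 38.3 and 36.2 CPM in WT libraries (interaction 1.20 ± 0.18, padj = 0.00312). MAN1A1, a mannosidase of the Golgi, was higher at D30 and lower at D0 too (interaction 1.48 ± 0.20, padj = 0.00171), and so was YPEL2 (interaction 1.75 ± 0.24, padj = 0.00203). All 5 genes were separate between the genotypes on both days.

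In the other direction, CBR1, a carbonyl reductase, had 13.9, 15.5 and 17.03 CPM in USB1 mutant libraries at D30, against 26.7, 29.2 and 29.2 CPM in WT libraries. It had 82.8, 93.1 and 97.7 CPM in USB1 mutant libraries at D0, against 61.6, 57.4 and 64.4 CPM in WT libraries. The genotypes were separate on both days (interaction −1.47 ± 0.17, padj = 7.14e-04). DOCK2, which activates Rac in blood cells, had 332 ± 39.04 CPM in USB1 mutant and 459 ± 4.28 CPM in WT libraries at D30, and 13.9 ± 1.54 CPM in USB1 mutant and 8.54 ± 0.552 CPM in WT libraries at D0 (interaction −1.18 ± 0.18, padj = 0.00321). BBS9, a subunit of the BBSome of cilia, had 8.65 ± 0.843 CPM in USB1 mutant and 11.6 ± 0.702 CPM in WT libraries at D30, and 45.2 ± 1.11 CPM in USB1 mutant and 22.99 ± 4.85 CPM in WT libraries at D0 (interaction −1.42 ± 0.23, padj = 0.00458). CORO1A, an actin regulator of leukocytes, had 449.9 ± 79.7 CPM in USB1 mutant and 606 ± 119 CPM in WT libraries at D30 with overlap, and 14.2 ± 2.35 CPM in USB1 mutant and 7.59 ± 0.806 CPM in WT libraries at D0 without (interaction −1.33 ± 0.27, padj = 0.0126), and its D30 effect had padj = 0.0997 and its D0 effect padj = 0.0861. The size of this class depended on the setting. It held 6 genes with transcript lengths, 43 with DESeq2, 41 with limma-voom, 32 with calls from separate fits of each day and 90 when the D0 fit also had the replicate block. It held 0 genes without all libraries of replicate number 3 and 3 without those of number 2. It held 1 gene without USB1 mutant D0 replicate 3, 4 without WT D0 replicate 2, 5 without USB1 mutant D0 replicate 1 or WT D0 replicate 1, 6 without WT D0 replicate 3 and 30 without USB1 mutant D30 replicate 1.

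**Figure D5:**
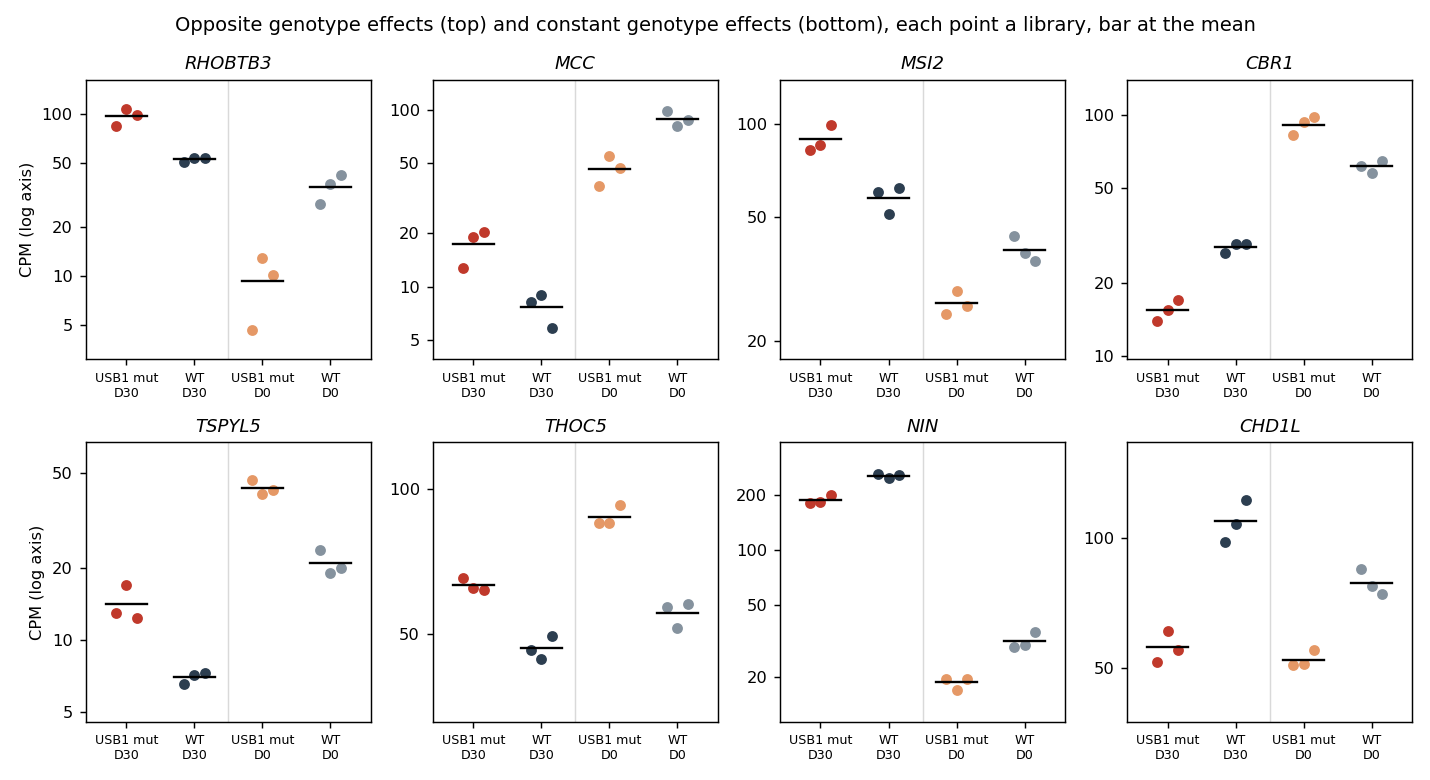
CPM (log axis) of 4 genes called in opposite directions (top) and 4 genes with a constant genotype effect (bottom) in each library, with USB1 mutant and WT at D30 and then at D0, and bars at the group means. RHOBTB3, MCC and MSI2 are higher in mutant than in WT libraries at D30 and lower at D0, and CBR1 the reverse. TSPYL5 and THOC5 are higher, and NIN and CHD1L lower, in mutant libraries on both days. CHD1L met the definition of a constant effect, but its interaction interval (−0.74 to −0.02) did not hold 0, so equal effects are not shown for it.

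A constant effect was defined as a genotype call on both days in the same direction, no interaction call, and a 95% interval of the interaction within 1 log2 unit of 0. It was met by 19 genes (0.117%), 10 higher and 9 lower in mutant cells. A further 26 were called on both days in the same direction with a wider interval, 3056 were called at D30 without an interaction call, 40 at D0 without one, and 11489 were called in no test. Among the 19, the interval of FLRT2 reached furthest from 0 (−0.06 to 0.96), and CPE, with the narrowest of the 26, reached from −1.01 to 0.16. The definition does not require the interval to hold 0. Those of H2AJ (−0.79 to −0.04) and CHD1L (−0.74 to −0.02) did not, so equal effects are not shown for them. The definition was met by 38 genes with calls from separate fits of each day, by 160 when the D0 fit also had the replicate block (15 of the 19 among them), and by 8, all among the 19, with a block on the D0 numbers in the 12-library fit.

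Among the constant genes, TSPYL5, a relative of nucleosome assembly proteins, had 12.98, 17.02 and 12.3 CPM in USB1 mutant libraries at D30, against 6.52, 7.14 and 7.26 CPM in WT libraries. It had 46.6, 40.7 and 42.1 CPM in USB1 mutant libraries at D0, against 23.7, 18.96 and 19.99 CPM in WT libraries. The effect was 1.03 at D30 and 1.05 at D0 on the log2 scale (interaction −0.02 ± 0.22, padj = 1), and the gene was constant in 26 of 28 alternatives. THOC5, a subunit of the THO complex that couples transcription to mRNA export, had 65.4, 62.3 and 61.7 CPM in USB1 mutant libraries at D30, against 46.4, 44.4 and 49.7 CPM in WT libraries, and 85.04, 84.99 and 92.6 CPM in USB1 mutant libraries at D0, against 56.99, 51.5 and 57.8 CPM in WT libraries (interaction −0.23 ± 0.14, padj = 0.409). HSPA2, an HSP70 chaperone, had 20.8 ± 7.28 CPM in USB1 mutant and 12.7 ± 0.991 CPM in WT libraries at D30, and 118 ± 15.97 CPM in USB1 mutant and 58.6 ± 8.09 CPM in WT libraries at D0 (interaction −0.26 ± 0.29, padj = 0.663). CHCHD2, a mitochondrial protein, was higher on both days (D30 0.38 and D0 0.83). It overlapped between the genotypes at D30, was constant in 3 of 28 alternatives, and was called at D0 but not at D30 when each day was fitted alone.

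On the lower side, NIN, a centrosomal protein that anchors microtubules, had 181, 182 and 201 CPM in USB1 mutant libraries at D30, against 261, 249 and 256 CPM in WT libraries. It had 19.5, 16.9 and 19.5 CPM in USB1 mutant libraries at D0, against 29.1, 29.97 and 35.2 CPM in WT libraries, lower in every mutant library on both days (interaction 0.31 ± 0.16, padj = 0.3). EPB41L3, a membrane skeleton protein, had 68.3 ± 2.35 CPM in USB1 mutant and 103 ± 17.9 CPM in WT libraries at D30, and 17.03 ± 0.574 CPM in USB1 mutant and 29.4 ± 4.799 CPM in WT libraries at D0 (interaction 0.20 ± 0.21, padj = 0.639). TDRD7, a Tudor protein of RNA granules, and FLRT2, a cell adhesion protein, were lower on both days (D30 −0.71 and D0 −0.95 for TDRD7, D30 −0.44 and D0 −0.89 for FLRT2). SOAT1, which esterifies cholesterol, CHD1L, a chromatin remodeller, and CTSK, ECM1 and NBPF15 lie on the long arm of chromosome 1. CHD1L had 51.7, 61.1 and 55.01 CPM in USB1 mutant libraries at D30, against 97.9, 108 and 123 CPM in WT libraries, and 50.9, 50.96 and 54.96 CPM in USB1 mutant libraries at D0, against 85.1, 77.4 and 74.2 CPM in WT libraries (interaction −0.38 ± 0.17, padj = 0.219). Others of the 19 (H2AJ, H4C6, IDH3B and ZNF562, all higher) had D30 effects of 0.30 to 0.68, and the histone gene H4C6 has near-identical copies.

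The D16 libraries share no sample with the other days. Of the 19 constant genes, all tested at D16, 12 were called there in their own direction (63.2%) and 0 in the other. Of all 14528 genes 13.1% were called higher and 15.3% lower in mutant cells at D16, 28.5% in either direction. Of the 160 genes given by separate fits with the D0 block 159 were tested at D16, and 55 were called there in their own direction and 11 in the other. Of the 1380 genes called for interaction and at D30 only that were tested at D16, 352 were called in their D30 direction (25.5%) and 179 in the other (13%). The second count was 83 without WT D16 replicate 1, 84 without WT D16 replicate 2, 104 to 115 without any of the 3 USB1 mutant D16 libraries and 278 without WT D16 replicate 3. Of the 2819 called at D30 without an interaction call, 716 (25.4%) and 247 (8.76%). Among the constant genes with large D16 effects were IDH3B (1.47) and EPB41L3 (−1.34). SOAT1 and ECM1, lower on both other days, had D16 effects of 0.45 and 0.67 that were not called. CDKN1A had 138, 134 and 125 CPM in USB1 mutant and 152, 128 and 119 CPM in WT libraries at D16, with no difference called (−0.01 ± 0.13, padj = 0.983).

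Most genes of the long arm of chromosome 1 (1q) had a negative genotype effect on both days. Of 455 such genes with at least 5 CPM on both days, 310 (68.1%) had a negative effect on both, against 27.4% of the 9435 other genes, 76.9% at D30 (50% elsewhere) and 87.5% at D0 (48.7% elsewhere). Their median effect was −0.34 at D30, −0.19 at D0 and −0.46 at D16, against −0.00, 0.01 and 0.04 elsewhere, and the short arm of the same chromosome had medians of 0.02, 0.01 and 0.05. Of the 19 constant genes 5 lay on 1q (26.3%), as did 94 of the 1509 genes called at D30 only (6.23%) and 415 of the 11489 called nowhere (3.61%). The interaction was called for 52 positive and 48 negative of 759 tested 1q genes, against 6.14% and 3.97% of all genes. The negative count was 20 to 29 without WT D0 replicate 2, USB1 mutant D0 replicate 2 or USB1 mutant D0 replicate 3, and the positive count 33 without USB1 mutant D0 replicate 2.

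Single 1q genes departed widely from this median. PLXNA2, a semaphorin receptor, had 77.03, 97.3 and 84.3 CPM in USB1 mutant libraries at D30, against 60.9, 75.9 and 89.7 CPM in WT libraries, which overlap, and 8.85, 13.03 and 12.3 CPM in USB1 mutant libraries at D0, against 36.5, 36.4 and 39.7 CPM in WT libraries, where mutant cells were lower without overlap (interaction 1.91 ± 0.24, padj = 0.00133). ADAMTSL4, a matrix protein, had 184, 149 and 187 CPM in USB1 mutant libraries at D30, against 498, 524 and 571 CPM in WT libraries, and 15.5 ± 1.95 CPM in USB1 mutant and 12.6 ± 2.95 CPM in WT libraries at D0 (interaction −1.92 ± 0.24, padj = 0.00133). B4GALT3, a galactosyltransferase, was higher at D30, with 171 ± 26.6 CPM in USB1 mutant and 63.7 ± 9.95 CPM in WT libraries at D30, and 28.97 ± 0.774 CPM in USB1 mutant and 31.4 ± 2.31 CPM in WT libraries at D0 (interaction 1.54 ± 0.20, padj = 0.00163). ADAMTSL4 and B4GALT3 overlap MCL1 and PPOX on the opposite strand. PRPF3, a U4/U6 snRNP protein on 1q, also rose in mutant cells at D30 (91.4, 85.6 and 83.2 CPM in USB1 mutant and 55.3, 54.9 and 54.96 CPM in WT libraries, interaction 0.77 ± 0.15, padj = 0.0102).

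Few lineage genes of blood had at least 5 CPM on both days, 10 of 30 in the erythroid list, 8 of 31 in the monocyte and macrophage list and 2 of 31 in the neutrophil list. Erythroid genes were higher in mutant cells at D30 for 21 of 30 tested and lower for 1, and 5 had a positive interaction. Over all genes 14.9% were higher and 13.5% lower at D30, and 6.14% had a positive interaction. EPB41, band 4.1 of the red cell skeleton, had 1400.0, 869 and 855 CPM in USB1 mutant libraries at D30, against 510.1, 350.4 and 422 CPM in WT libraries, and 92.4 ± 2.94 CPM in USB1 mutant and 104 ± 5.14 CPM in WT libraries at D0 (interaction 1.46 ± 0.26, padj = 0.00762). FECH, the last enzyme of heme synthesis, had 569.9, 362 and 353 CPM in USB1 mutant libraries at D30, against 213, 155 and 167 CPM in WT libraries, and 31.4 ± 1.61 CPM in USB1 mutant and 33.03 ± 2.203 CPM in WT libraries at D0 (interaction 1.34 ± 0.26, padj = 0.0106). Among the others were TRIM58, a ligase of late erythroblasts (2.43 ± 0.49, padj = 0.014), and SLC25A37, which imports iron into mitochondria (1.33 ± 0.38, padj = 0.0611). The erythroid count was 9 without USB1 mutant D30 replicate 2 and 3 without USB1 mutant D0 replicate 3, WT D0 replicate 1 or WT D0 replicate 3. The erythroid marker sum given above was higher in mutant blood as well, and its part in the result was not tested.

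Phagocyte genes were mostly lower in mutant blood. Over all genes 14.9% were higher and 13.5% lower at D30, with 6.14% positive and 3.97% negative interactions. Of 31 neutrophil genes tested, 1 was higher and 19 lower at D30, and 3 had a negative interaction (5 without USB1 mutant D30 replicate 3). Of 31 monocyte and macrophage genes, 0 were higher and 23 lower, and 2 had a negative interaction. SPP1, osteopontin, had 1853, 4110.1 and 2389 CPM in USB1 mutant libraries at D30, against 7322, 10147 and 7771 CPM in WT libraries, and 562 ± 146 CPM in USB1 mutant and 442 ± 31.98 CPM in WT libraries at D0 (interaction −1.94 ± 0.37, padj = 0.0106). LTF, the granule protein lactoferrin, had 1.06, 5.58 and 4.19 CPM in USB1 mutant libraries at D30, against 41.4, 19.96 and 67.7 CPM in WT libraries, and 0.642 ± 0.08901 CPM in USB1 mutant and 0.355 ± 0.331 CPM in WT libraries at D0 (interaction −4.54 ± 1.13, padj = 0.0314). CEBPA, a factor of myeloid commitment, was lower at D30 (interaction −0.98 ± 0.23, padj = 0.0257), as was APOE, the apolipoprotein of macrophages (interaction −0.60 ± 0.19, padj = 0.0884, lost in 16 of 26 alternatives). LCP1, the leukocyte plastin, overlapped between genotypes at D30 and was above WT in all mutant libraries at D0 (31.1, 30.5 and 34.6 CPM in USB1 mutant and 21.5, 19.02 and 17.9 CPM in WT libraries, interaction −1.19 ± 0.26, padj = 0.0187). Of 24 cytokine receptors 1 was positive (KIT) and 2 were negative, IL6R, for interleukin-6 (−1.23 ± 0.25, padj = 0.0127), and IFNGR2, for interferon gamma (−0.87 ± 0.25, padj = 0.0579). The mast cell, basophil and eosinophil list had 2 positive interactions, KIT and GATA2 (1.59 ± 0.46, padj = 0.0663), with 11 of 21 members higher and 0 lower at D30. NFE2, an erythroid and megakaryocytic factor, had 602, 334 and 405 CPM in USB1 mutant libraries at D30, against 222, 199.9 and 247 CPM in WT libraries, and 0.793 ± 0.298 CPM in USB1 mutant and 1.78 ± 0.4602 CPM in WT libraries at D0 (interaction 2.15 ± 0.46, padj = 0.0146).

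In a few genes the genotypes differed in stem cells and not detectably in blood. In the endoderm and primitive streak list 10 of 20 tested members were lower in mutant cells at D0 and 0 higher, against 0.602% lower over all genes. At D30 1 was higher and 1 lower, against 14.9% and 13.5% of all genes. Members of this list mark a spontaneous exit from the stem cell state, and 1 of them had at least 5 CPM on both days. CXCR4, a chemokine receptor of definitive endoderm and of blood cells, had 18.8, 33.6 and 51.4 CPM in USB1 mutant libraries at D30, against 24.4, 32.3 and 65.5 CPM in WT libraries, with wide overlap, and 7.03, 6.43 and 7.28 CPM in USB1 mutant libraries at D0, against 32.1, 23.2 and 23.3 CPM in WT libraries, lower in every mutant library (interaction 1.65 ± 0.52, padj = 0.0848, lost in 14 of 26 alternatives). BMP2, a ligand of mesoderm formation, had 8.13 ± 2.22 CPM in USB1 mutant and 8.12 ± 1.05 CPM in WT libraries at D30, and 22.1 ± 5.76 CPM in USB1 mutant and 58.01 ± 7.62 CPM in WT libraries at D0 (interaction 1.38 ± 0.33, padj = 0.0301). TIE1, an endothelial receptor, had 16.6 ± 3.13 CPM in USB1 mutant and 20.7 ± 1.45 CPM in WT libraries at D30, and 14.9 ± 1.79 CPM in USB1 mutant and 8.52 ± 0.992 CPM in WT libraries at D0 (interaction −1.11 ± 0.25, padj = 0.02).

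Several signalling, imprinted and matrix genes had positive interactions and higher levels in mutant than in WT blood. Over all genes 6.14% had a positive interaction and 3.97% a negative one. The Wnt, FGF and TGF-beta list had 11 positive and 2 negative interactions among 51 tested. LRP5, a Wnt co-receptor, had 83.9, 66.4 and 97.7 CPM in USB1 mutant libraries at D30, against 28.4, 27.7 and 17.3 CPM in WT libraries, and 81.1 ± 7.03 CPM in USB1 mutant and 74.1 ± 8.89 CPM in WT libraries at D0 (interaction 1.61 ± 0.27, padj = 0.00458). FZD7, a Wnt receptor of stem cells, had 10.8 ± 4.12 CPM in USB1 mutant and 3.001 ± 0.699 CPM in WT libraries at D30, and 804 ± 43.03 CPM in USB1 mutant and 628 ± 92.9 CPM in WT libraries at D0 (interaction 1.39 ± 0.32, padj = 0.0255). Without WT D30 replicate 2, USB1 mutant D0 replicate 3, WT D0 replicate 2 or WT D0 replicate 3 the positive count was 7. Imprinted genes had 7 positive and 1 negative interactions of 27 tested (4 positive without WT D0 replicate 2). NDN, a growth suppressor of the Prader-Willi region, had 16.8, 24.2 and 15.4 CPM in USB1 mutant libraries at D30, against 2.998, 4.27 and 4.51 CPM in WT libraries, and 31.4 ± 1.35 CPM in USB1 mutant and 30.5 ± 4.18 CPM in WT libraries at D0 (interaction 2.21 ± 0.28, padj = 0.00133). INPP5F, a phosphoinositide phosphatase, had 113, 109 and 123 CPM in USB1 mutant libraries at D30, against 53.96, 51.9 and 57.9 CPM in WT libraries, and 313 ± 7.88 CPM in USB1 mutant and 304 ± 30.2 CPM in WT libraries at D0 (interaction 1.03 ± 0.15, padj = 0.00311). MEST, an imprinted hydrolase, had an interaction of 2.41 ± 0.38, padj = 0.00375, and ZNF331 one of 1.01 ± 0.22, padj = 0.0179. Stroma and matrix genes had 4 positive and 0 negative of 28, and this count was 1 or 2 without any of the 6 D0 libraries, USB1 mutant D30 replicate 3, WT D30 replicate 1 or WT D30 replicate 2. COL6A3, a collagen VI chain, had 24.4 ± 3.54 CPM in USB1 mutant and 3.96 ± 1.61 CPM in WT libraries at D30, and 22.5 ± 3.82 CPM in USB1 mutant and 17.8 ± 2.76 CPM in WT libraries at D0 (interaction 2.24 ± 0.35, padj = 0.00347). TAGLN, an actin-binding protein, had an interaction of 1.03 ± 0.31, padj = 0.0689, lost in 16 of 26 alternatives. KDR, the VEGF receptor of endothelium, had 9.68 ± 2.41 CPM in USB1 mutant and 2.92 ± 1.28 CPM in WT libraries at D30, and 76.1 ± 16.2 CPM in USB1 mutant and 112 ± 38.2 CPM in WT libraries at D0 (interaction 2.28 ± 0.45, padj = 0.0118).

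Lists close to the known biochemistry of USB1 are given beside shares over all genes of 6.14% positive and 3.97% negative interactions. Lists of this size would hold few calls at those shares. Of 33 snRNP and U6-associated genes 1 had a positive interaction, PRPF3, and 1 a negative one, EFTUD2, a GTPase of the U5 snRNP (−0.50 ± 0.15, padj = 0.076, lost in 15 of 26 alternatives). Of 28 genes of miRNA processing and RNA tailing 3 were positive and 0 negative: TUT4, which adds uridines to RNA ends, had 65.7, 68.9 and 58.6 CPM in USB1 mutant libraries at D30, against 49.4, 52.9 and 54.5 CPM in WT libraries, and 50, 57.7 and 55.03 CPM in USB1 mutant libraries at D0, against 60.5, 67.9 and 73.3 CPM in WT libraries (interaction 0.61 ± 0.16, padj = 0.044). TNRC6B (0.67 ± 0.21, padj = 0.0833) and AGO2 (0.91 ± 0.30, padj = 0.0912) encode proteins of the silencing complex. The TUT4 call was lost in 8, the AGO2 call in 15 and the TNRC6B call in 17 of 26 alternatives, and the list had 0 or 1 call without any of 8 single libraries (all of D0 but WT replicate 1, USB1 mutant D30 replicate 1, WT D30 replicate 2 and WT D30 replicate 3). Of 14 RNA exosome genes edgeR, DESeq2 and limma-voom called 0, with 1 positive and 0 negative at an unadjusted p under 0.05, and the smallest p belonged to EXOSC6 (0.49 ± 0.22, padj = 0.219). Of 18 telomerase and dyskeratosis genes edgeR and limma-voom called 0 and DESeq2 1, with 2 positive and 2 negative at an unadjusted p under 0.05. STN1, which helps fill in telomere ends, had −0.82 ± 0.30, padj = 0.134, and DKC1, the pseudouridine synthase of telomerase, had 0.40 ± 0.17, padj = 0.197. Of 34 SR and hnRNP splicing regulators 2 were positive and 0 negative, and MBNL2, a muscleblind splicing factor, had 115, 96.7 and 127 CPM in USB1 mutant libraries at D30, against 47.97, 42.6 and 49.9 CPM in WT libraries, and 8.37 ± 1.06 CPM in USB1 mutant and 9.53 ± 0.873 CPM in WT libraries at D0 (interaction 1.46 ± 0.20, padj = 0.00205).

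Of 86 ribosomal protein genes tested, 32 were higher and 1 lower in mutant cells at D30, against 14.9% and 13.5% of all genes. At D0 0 of them were called (7 higher and 0 lower at an unadjusted p under 0.05). Their median effects were 0.34 at D30 and 0.18 at D0. A positive interaction was called for 2 (RPL18 and RPL36AL), for 0 without USB1 mutant D0 replicate 2, and a negative one for 0 (4 positive and 1 negative at an unadjusted p under 0.05). These genes have many processed copies and their values are uncertain. Zinc-finger genes of chromosome 19 had 11 positive and 3 negative interactions of 236 tested, a positive share near that of all genes, with ZNF507 (1.34 ± 0.17, padj = 0.00133), ZNF175 (0.85 ± 0.18, padj = 0.0178) and ZNF805 (0.74 ± 0.17, padj = 0.028) as the named examples. Their positive count was 7 with the block on the D0 numbers, 5 without USB1 mutant D0 replicate 1 or WT D0 replicate 2, and 7 without USB1 mutant D0 replicate 2, USB1 mutant D0 replicate 3 or WT D0 replicate 1.

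Metabolic, lysosomal and MHC class I lists are given beside 6.14% positive and 3.97% negative interactions over all genes. At D30 1 of 44 oxidative phosphorylation genes was higher and 6 lower in mutant cells, and 2 and 11 of 22 in glycolysis. Cholesterol synthesis had 2 and 10 of 24, lysosome 1 and 13 of 32, MHC class I 0 and 7 of 14. Over all genes 14.9% were higher and 13.5% lower. At an unadjusted p under 0.05, oxidative phosphorylation had 0 positive and 9 negative interactions and glycolysis 3 and 6. Cholesterol synthesis and MHC class I had 0 and 5 each, lysosome 0 and 7. In oxidative phosphorylation 0 of 44 members were positive and 2 negative, with UQCRC1, of complex III, at 137, 139.7 and 129 CPM in USB1 mutant and 209, 207 and 193 CPM in WT libraries at D30, separate groups, and 226 ± 12.1 CPM in USB1 mutant and 196 ± 12.2 CPM in WT libraries at D0 (interaction −0.79 ± 0.14, padj = 0.00734). In glycolysis SLC2A1, the GLUT1 transporter of red cells, was positive (1.59 ± 0.33, padj = 0.0153) and PFKP, a phosphofructokinase, negative (−1.18 ± 0.26, padj = 0.0204), the 2 calls of 22, with 4 negative calls without USB1 mutant D30 replicate 3. Cholesterol synthesis had 2 negative calls of 24, among them DHCR7 (−0.84 ± 0.20, padj = 0.0303). Lysosomal genes had 0 positive and 5 negative interactions of 32, among them NPC1, which exports cholesterol (170.4 ± 23.5 CPM in USB1 mutant and 270.4 ± 18.4 CPM in WT libraries at D30, and 133 ± 12.5 CPM in USB1 mutant and 117 ± 7.46 CPM in WT libraries at D0, interaction −0.85 ± 0.18, padj = 0.0153), and GUSB (−0.83 ± 0.19, padj = 0.0245). This count was 3 without WT D30 replicate 3, USB1 mutant D0 replicate 3 or WT D0 replicate 2. Of 14 MHC class I and peptide loading genes 3 were negative, among them ERAP2 and PSMB10, with PSMB10, an immunoproteasome subunit, at 42.2 ± 7.38 CPM in USB1 mutant and 71.6 ± 7.55 CPM in WT libraries at D30 (interaction −0.94 ± 0.23, padj = 0.0345), with 1 negative call without WT D0 replicate 2.

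The remaining lists are given beside shares over all genes of 6.14% positive and 3.97% negative interactions. Hematopoietic transcription factors had 2 positive and 3 negative interactions of 31 (5 positive without USB1 mutant D30 replicate 2 and 1 without any of 5 other libraries), among them ERG, a factor of stem cells and endothelium, with 0 counts in USB1 mutant and 25 counts in WT libraries at D30. Against 3 counts over the mutant group it was at least 6.98-fold lower than the WT mean of 0.854 CPM. This bound covers the counting error of the mutant group only, not that of the few WT counts. The ERG call was lost without all libraries of replicate number 1, 2 or 3. CEBPB, a myeloid factor, overlapped between the genotypes at D30 and had 56.6 ± 7.91 CPM in USB1 mutant and 42.7 ± 3.14 CPM in WT libraries at D0 (interaction −0.58 ± 0.19, padj = 0.0885, lost in 17 of 26 alternatives). Endothelial genes had 1 positive and 3 negative of 14. PECAM1, an adhesion molecule of endothelium and leukocytes, had 189 ± 48.2 CPM in USB1 mutant and 307 ± 34.4 CPM in WT libraries at D30, and 0.436 ± 0.155 CPM in USB1 mutant and 0.1301 ± 0.0256 CPM in WT libraries at D0 (interaction −2.37 ± 0.74, padj = 0.0529). Pluripotency genes had 2 positive (SALL2 and SOX2) and 0 negative of 27, immediate early genes 0 and 1 of 25, KLF4 (−1.28 ± 0.32, padj = 0.0343), replication-dependent histones 1 (H2AC25) and 0 of 59 (3 and 10 at an unadjusted p under 0.05, and 10 negative calls without USB1 mutant D30 replicate 1), clustered protocadherins 1 and 3 of 47, lymphoid genes 1 (CD247) and 0 of 8 and DNA methylation genes 1 and 0 of 14, DAXX, a histone chaperone partner (1.20 ± 0.26, padj = 0.0173). Of 13 megakaryocyte genes edgeR and limma-voom called 0 and DESeq2 2 (1 positive and 1 negative at an unadjusted p under 0.05), and of 9 MHC class II genes all 3 tools called 0 (0 at an unadjusted p under 0.05). The protocadherin count of 3 was 1 without WT D30 replicate 2 or WT D0 replicate 2 and 5 without USB1 mutant D30 replicate 2.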

How the data were processed

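RNA from H1 cells, depleted of rRNA and made into directional libraries, was sequenced by the study's authors. Reads were cleaned with Trimmomatic (0.36), and Salmon (0.13.1) estimated transcript amounts from the Ensembl cDNA set of GRCh38. The deposited tables hold, per gene and library, expected counts estimated by Salmon and summed to genes by the authors, together with TPM and mean transcript lengths from the authors' same runs. The TPM were not used as results, and lengths only as offsets in an alternative. The tables of D30 and D0 hold the same 35168 gene identifiers, of which 35051 matched GENCODE v44 (117 did not, with 0.238% of counts). The sources do not say whether strand was used.

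Expected counts were rounded and fitted with edgeR 4.0.16 (R 4.3.3) over the 12 libraries of D30 and D0 as 4 group means, after filterByExpr (16277 genes), with TMM scaling. The D16 libraries were fitted alone (14528 genes). Differences were called at an adjusted p under 0.1 (Benjamini-Hochberg, quasi-likelihood test). Standard errors used the posterior quasi-dispersion, and 95% intervals the t distribution. A level of at least 5 CPM on both days and a band of 1 log2 unit were required where stated. Total counts of 4125125 to 19368927 set the precision. Intervals cover counting error and the spread of 3 libraries only, and bounds cover the counting error of the group with 0 counts only. The 136 named genes were USB1 and, among genes with at least 5 CPM on both days, no near-identical copies and a lowest replicate of at least 0.1 of the highest in each group, the 8 highest and 8 lowest called interactions, up to 6 genes per direction with opposite effects (smallest adjusted p), the 6 highest and 6 lowest constant effects and up to 4 called members of each list (smallest adjusted p, or up to 2 where none was called, and up to 2 constant ones). In lists near silent on 1 day, up to 3 called members with the highest CPM were taken. Genes named outside this rule, such as EPSTI1, GDF15, TP53I3, CD302 and single members given beside small counts, were chosen after their values were seen. Some of the genes this rule took are not reported here. The comparison, its classes and the 42 gene lists were chosen with earlier results of these data known. Pairing by replicate number required a correlation of deviations from group means over 0.1 in every same-numbered pair. It was met by the D0 genotypes (0.264 to 0.425 over 3 pairs, against −0.342 to 0.11 for other numbers) and not over all groups, so that D0 blocks were added after seeing the data. Alternatives were DESeq2 1.42.0, limma-voom (limma 3.58.1), RLE scaling, scaling without globins and the 20 most abundant genes, other filters, length offsets, all 18 libraries, an adjusted p under 0.05, a replicate block, leaving out 1q and leaving out each library. The fit was run on simulated counts that had the same dispersion for every gene and both days and no pairing of replicates. It therefore could not check the fit for unlike spread between the days or for the pairing at D0. Promoter sequences came from RefSeq (GRCh38.p14) for 11999 of the 16277 genes.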

Additional observations from a re-analysis of the deposited data

Results flagged for a closer look

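The genotype effect differed between D30 and D0 by the test of the interaction itself for 1647 genes, and for 14 of them the effect was called on both days in opposite directions. Of the 10 such genes named, 5 were higher in USB1 mutant than in WT cells at D30 and lower at D0, with interactions on the log2 scale of 2.82 for RHOBTB3, 2.10 for MCC, 1.75 for YPEL2, 1.48 for MAN1A1 and 1.20 for MSI2. The other 5 were lower at D30 and higher at D0, with −5.95 for FLOT1, −1.47 for CBR1, −1.42 for BBS9, −1.33 for CORO1A and −1.18 for DOCK2. The FLOT1 value rests on a D0 level that was far higher in USB1 mutant replicate 3 than in the other libraries.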

How the results depend on the processing

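No interaction called for a named gene reversed its direction under the alternatives run, while the median interaction over all genes, which has no test, was 0.02 in the fit reported, −0.02 with RLE scaling, −0.05 with scaling without globins and the 20 most abundant genes and −0.04 among genes passing the filter on both days. The 1647 interaction calls became 985 with length offsets and 969 at an adjusted p under 0.05. They were 872 to 2125 with 1 library left out, with 872 without WT D0 replicate 2, 968 without USB1 mutant D0 replicate 3, 1064 without USB1 mutant D0 replicate 2 and 1070 without WT D30 replicate 2. Without all libraries of replicate number 1, 2 or 3 they were 1316, 237 and 193. RLE scaling gave 1656, no count filter 1495, limma-voom 1452, DESeq2 2217 and all 18 libraries 1834. The share of positive calls, 60.72% in the fit reported, was 50.3% with scaling without globins and the 20 most abundant genes and 50.26% among genes passing the filter on both days.

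The 19 constant genes became 55 with DESeq2, 62 with limma-voom, 4 with length offsets, 9 at an adjusted p under 0.05, 12 without 1q, 5 with a band of 1.5-fold 38 with calls from separate fits of each day and 160 when the D0 fit also had the replicate block. Of these, 30, 30, 2, 6, 8, 4, 20 and 55 in that order were called at D16 in the same direction, and 2, 1, 0, 0, 0, 0, 2 and 11 in the other. With 1 library left out 3 to 23 genes were constant, with 3 without USB1 mutant D0 replicate 3 or WT D0 replicate 2, 5 without USB1 mutant D0 replicate 1, WT D0 replicate 1 or WT D0 replicate 3, and 8 without USB1 mutant D0 replicate 2, and 0 were without all libraries of replicate number 2 or 3. Of 113 named genes with an interaction call, 30 were called under every alternative and 12 under fewer than 0.5 of them.

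Over all 12 libraries the replicate numbers did not pair the samples: over 18 same-numbered pairs the correlation of deviations from group means ran from −0.331 to 0.425 (median 0.018, against −0.01 for other numbers). With the replicate block 1556 genes were called (923 positive and 633 negative) and 14 were constant, 8 of them called at D16 in the same direction and 2 in the other. The D0 pairs alone met the criterion for pairing, and a replicate block at D0 only, added after seeing the data, gave 1345 interaction calls, 8 constant genes, 5 of them called at D16 in the same direction, and 11 opposite ones. For the lists with at least 3 calls it moved the mitosis count to 10, against 17, the zinc-finger count to 7, against 11, the matrix count to 2, against 4, and the miRNA processing count to 1, against 3. At D30 alone the same-numbered pairs ran from −0.2 to 0.317, and at D16 from 0.042 to 0.401, and neither day met the criterion. Depth limits the shallowest library, USB1 mutant D30 replicate 3, and genes near 0 at D0: of 436 genes with at most 3 counts in each genotype at D0, 0 were called by edgeR.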
